A study of Mus musculus with 6 samples.

Results

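The chemokine genes examined here comprise 35 genes, 29 ligands and 6 receptors, taken by symbol from the 23415 genes of a deposited table on mouse liver. The ligands were 17 of the CC class, 11 of the CXC class and Cx3cl1, and the receptors were Ccr1, Ccr2, Cxcr2, Cxcr4, Cxcr6 and Cx3cr1. The study sequenced liver RNA of 3 mice that lack alkaline sphingomyelinase, the product of Enpp7, (animals 82, 84 and 85) and of 3 wildtype mice (81, 83 and 90), all of strain C57BL/6, which the design text calls 3 pairs. The letters K and W in the sample names were read as knockout and wildtype. Which mice form a pair, their age and the exact allele are not given in the sources used here. The series' design text speaks of intestine, whereas the tissue label says liver.

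The deposited table holds 1 value per group and none per mouse, so no spread between mice can be given, and whether the groups overlap cannot be told. Values are treated as FPKM, fragments scaled for transcript length and sequencing depth, and can therefore be compared between genes. The depth of the libraries is unknown. Ratios are log2 of knockout over wildtype, and the standard error (SE) beside each is the ratio divided by the z of the authors' deposited table. This SE belongs to the authors' model. Rises and falls are those with q under 0.05 in the authors' deposited table, where q was adjusted over 11515 tested genes. A gene is called near zero where both groups lie under 1 FPKM.

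Chemokines are small secreted proteins that bind G protein-coupled receptors and draw leukocytes along a concentration gradient. They are classed by the spacing of their first cysteines as CC, CXC or CX3C. In the liver, hepatocytes, Kupffer cells, sinusoidal endothelium and stellate cells can make inflammatory chemokines after injury or infection, while others, such as Cxcl12, are made in the resting organ.

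Of the 35 genes, 3 rose in the knockout livers, namely Cxcl1, Cxcl14 and Ccl2, and 0 fell. Another 13 were tested and did not pass, and 19 carry the mark NOTEST, which in Cuffdiff output stands for too few alignments to test. Over all tested genes 1.08% were called, 0.573% higher (66 genes) and 0.504% lower (58 genes). At an unadjusted p under 0.05 in the authors' deposited table, 4 of the 16 tested members were higher and 0 lower, against 5.29% of all tested genes in either direction (2.82% higher and 2.47% lower). The median log2 ratio of the 16 was 0.32, with 14 ratios above 0, beside a median of -0.0012 and 49.9% above 0 over all tested genes. That median was 0.15 and 0.19 with pseudocounts of 1 and 0.5 FPKM. After scaling the groups to equal FPKM sums it was 0.12, with 10 of 16 ratios above 0, beside a median of -0.20 and 22.8% above 0 over all tested genes. These summaries are a description only. Ccl2, Ccl7 and Cxcr4 had wildtype values below 0.679 FPKM, the highest value of any gene left untested, and so may have entered the test through the knockout group.

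**Figure D1:**
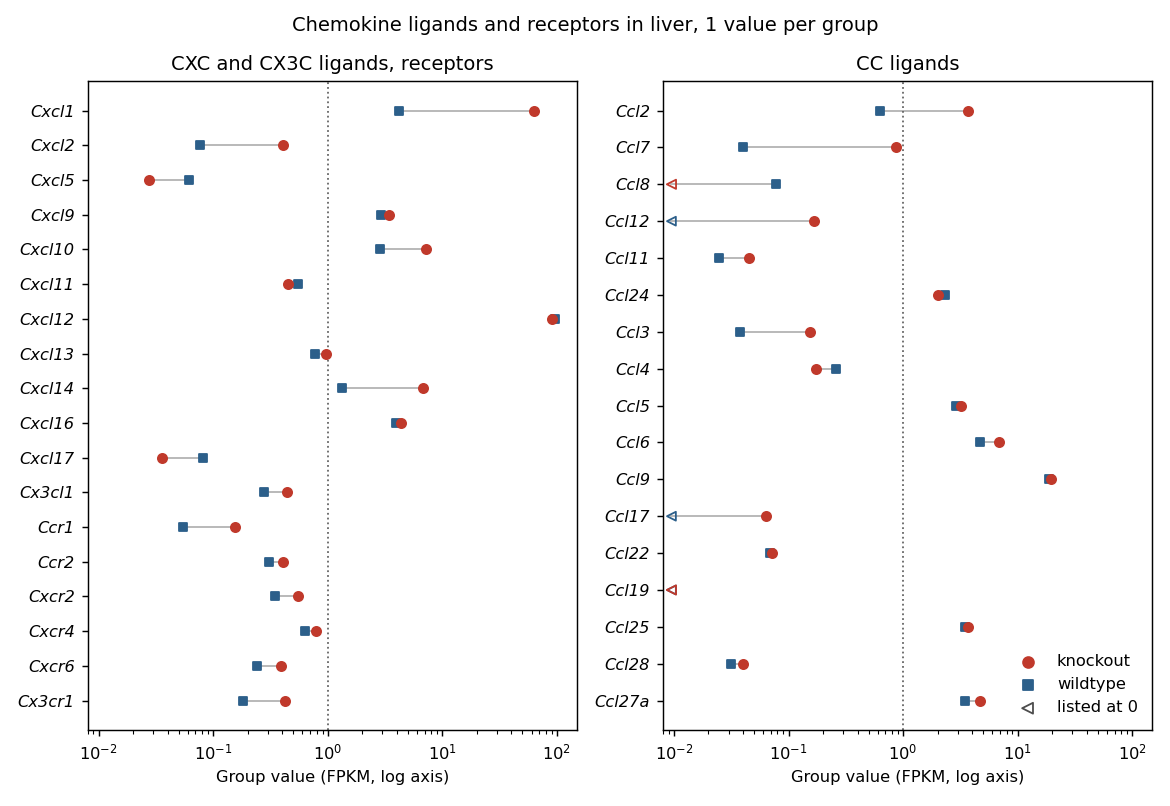
Group values of the 35 chemokine genes in FPKM on a log axis, with circles for the knockout group, squares for the wildtype group and open triangles at the left edge for genes listed at 0. Cxcl1, Cxcl14 and Ccl2, the genes that rose, have their knockout value well right of the wildtype value, and 22 genes lie wholly left of the dotted line at 1 FPKM.

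Cxcl1, Cxcl2 and Cxcl5 attract neutrophils through Cxcr2. Cxcl1 stood at 62.9 FPKM (knockout) and 4.21 FPKM (wildtype). It rose 15.0-fold (log2 ratio 3.90 ± 0.37 SE), and the authors' deposited table prints its q as 0. The rise ranked 18th among 11456 tested genes with a finite ratio, and the gene lies on chromosome 5 at 90891245 to 90893115 (mm10). Cxcl2, the next member downstream, was listed at 0.406 FPKM in knockout livers against 0.0761 FPKM in wildtype livers and was not tested. Cxcl5 was at 0.0274 and 0.0610 FPKM and was not tested either. Both stayed near zero, and the rise in transcripts of this neutrophil-attracting group was that of Cxcl1.

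Promoters are shown for the member with the largest called ratio, for its neighbour Cxcl2, and for Cxcl10, Ccl9 and Cxcl14 as contrasts in level and response. Each line gives the 250 bases before the transcription start, 5′ to 3′ on the strand of the gene, from RefSeq on GRCm38.p6, the assembly behind mm10. Capitals mark matches on either strand to the NF-kappaB consensus (called kappaB below) or to the AP-1 heptamer loosened to any central base, TGANTCA. They also mark GAAA followed by any 2 bases and a further GAAA, a repeat found in interferon response elements. The windows are chr5:90890995-90891244 (plus strand) for Cxcl1, chr5:90903649-90903898 (plus) for Cxcl2, chr5:92348890-92349139 (minus) for Cxcl10, chr11:83578637-83578886 (minus) for Ccl9 and chr13:56296552-56296801 (minus) for Cxcl14.
Cxcl1: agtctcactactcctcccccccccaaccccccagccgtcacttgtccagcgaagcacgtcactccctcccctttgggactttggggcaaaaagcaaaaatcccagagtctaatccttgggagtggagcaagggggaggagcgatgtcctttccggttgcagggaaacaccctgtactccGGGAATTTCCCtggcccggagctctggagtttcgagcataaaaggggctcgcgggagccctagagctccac
Cxcl2: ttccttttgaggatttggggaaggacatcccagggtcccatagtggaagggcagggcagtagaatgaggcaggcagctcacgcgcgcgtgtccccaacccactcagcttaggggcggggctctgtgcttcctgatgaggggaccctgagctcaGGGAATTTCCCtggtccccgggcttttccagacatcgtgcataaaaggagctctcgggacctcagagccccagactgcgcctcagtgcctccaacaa
Cxcl10: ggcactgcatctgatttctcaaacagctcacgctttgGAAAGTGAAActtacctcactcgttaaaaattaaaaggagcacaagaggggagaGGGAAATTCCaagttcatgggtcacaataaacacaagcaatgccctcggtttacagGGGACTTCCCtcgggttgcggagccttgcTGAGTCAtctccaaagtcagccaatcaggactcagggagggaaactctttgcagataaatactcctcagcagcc
Ccl9: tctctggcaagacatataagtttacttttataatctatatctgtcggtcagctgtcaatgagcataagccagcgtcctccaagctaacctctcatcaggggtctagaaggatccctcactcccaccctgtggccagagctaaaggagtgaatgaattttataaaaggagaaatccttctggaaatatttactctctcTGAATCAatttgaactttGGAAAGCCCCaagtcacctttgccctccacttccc
Cxcl14: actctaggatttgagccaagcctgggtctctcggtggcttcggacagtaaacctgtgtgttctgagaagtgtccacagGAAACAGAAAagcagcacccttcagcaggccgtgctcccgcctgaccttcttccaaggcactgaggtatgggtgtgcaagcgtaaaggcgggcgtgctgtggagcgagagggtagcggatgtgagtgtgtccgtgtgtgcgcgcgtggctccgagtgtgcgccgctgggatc

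The promoters of Cxcl1 and Cxcl2 hold the same run of 11 bases, GGGAATTTCCC, which matches kappaB on both strands. It spans -71 to -61 in Cxcl1 and -97 to -87 in Cxcl2, counted from the start. Cxcl10 holds kappaB matches at -159 to -150 and -103 to -94, an AP-1 match at -74 to -68 and the GAAA repeat at -213 to -204. Ccl9 holds a match to the loosened AP-1 heptamer, TGAATCA with A at its centre, at -53 to -47. It also holds a kappaB match on the opposite strand at -35 to -26. Cxcl14 holds the GAAA repeat alone, at -172 to -163. Of the 35 members, 25 had a promoter of 300 bases (250 before and 50 after the start) in the table, Ccl2 not among them. In those windows 5 of 25 members held a kappaB match (Cxcl1, Cxcl2, Cxcl10, Ccl9 and Ccl27a), against 5.14% of 27025 genes with a promoter. The AP-1 heptamer with any central base was found in 5 of 25 and in 8.97% of all genes, and the GAAA repeat in 3 of 25 and 3.99%. Of the 5 with a kappaB match, Cxcl1 rose, Cxcl10, Ccl27a and Ccl9 were tested and did not pass, and Cxcl2 was near zero and not tested. By listed values, Cxcl10 was 2.54-fold, Ccl27a 1.35-fold and Cxcl2 5.33-fold higher in the knockout group, and Ccl9 was nearly level at 1.04-fold. Whether the matches go with the ratios was not tested. The matches are letters in these windows and do not show binding.

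Cxcl9, Cxcl10 and Cxcl11 are induced by interferon and attract activated T cells and NK cells through Cxcr3. Cxcl10 was listed at 7.19 FPKM (knockout) and 2.83 FPKM (wildtype) (log2 ratio 1.35 ± 0.43). Its unadjusted p was 0.00177 and its q 0.115 in the authors' deposited table, so it did not pass. Cxcl9 was nearly level at 3.40 and 2.92 FPKM (0.22 ± 0.31, 95% interval -0.40 to 0.84), and Cxcl11 was near zero at 0.453 and 0.547 FPKM and was not tested. The 3 genes lie within 93.3 kb of chromosome 5, and the table gives Cxcl10, Cxcl11 and Art3 1 common locus, so that their reads may not be fully separable. Cxcr3 itself was at 0.378 and 0.336 FPKM and was not tested.

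Cxcl12 had the highest value of all 35 genes. It is the ligand of Cxcr4 and retains hematopoietic and other cells in their niches. Its values were 90.3 FPKM in knockout livers against 96.0 FPKM in wildtype livers (log2 ratio -0.09 ± 0.29). The 95% interval of that ratio, -0.66 to 0.48, leaves out a change of 2-fold in either direction. Cxcr4 was near zero at 0.790 and 0.628 FPKM (0.33 ± 0.57), and Cxcr7 (now Ackr3), an atypical receptor that takes up Cxcl12, was at 0.516 and 0.388 FPKM and was not tested.

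Cxcl14, a CXC chemokine of epithelia and other resting tissue, was listed at 6.77 FPKM (knockout) and 1.33 FPKM (wildtype). It rose 5.09-fold, a log2 ratio of 2.35 ± 0.38, and the authors' deposited table gives q = 2.53e-07. The gene lies on chromosome 13 at 56288643 to 56296551. Cxcl16, a membrane-bound ligand of Cxcr6 that also acts as a scavenger receptor, was at 4.35 and 3.92 FPKM (0.15 ± 0.32, 95% interval -0.48 to 0.78). Its receptor Cxcr6 was at 0.393 and 0.240 FPKM and was not tested. Cxcl13, a B cell attractant, was near zero at 0.960 and 0.779 FPKM (0.30 ± 0.64), and Cxcl17, a mucosal chemokine, was at 0.0356 and 0.0816 FPKM and was not tested.

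**Figure D2:**
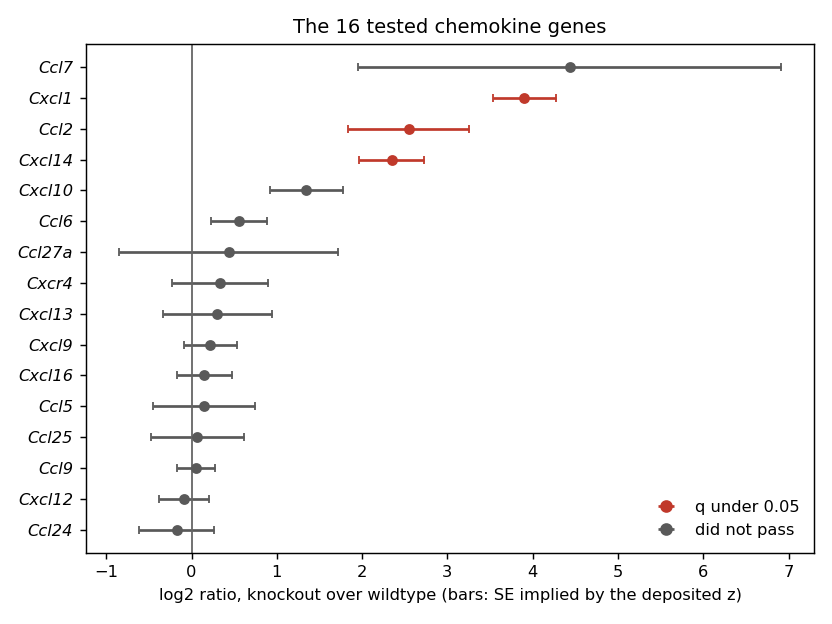
Log2 ratios of knockout over wildtype for the 16 tested chemokine genes, with bars of 1 SE as implied by the deposited z; red points passed q under 0.05. Cxcl1, Ccl2 and Cxcl14 lie above 2 with bars well clear of 0, while Ccl7 has the highest ratio and the widest bar.

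Ccl2, Ccl7 and Ccl12 attract monocytes, chiefly through Ccr2, and lie with Ccl8 and Ccl11 within 81.2 kb of chromosome 11. Ccl2 stood at 3.68 FPKM in knockout livers against 0.631 FPKM in wildtype livers. It rose 5.84-fold, a log2 ratio of 2.55 ± 0.71 with q = 0.0355 by the authors' deposited table, and lies at 82035577 to 82037452. At equal FPKM sums, its log2 ratio was 2.35 with a recomputed q of 0.0553, so the call was lost, as it was with Holm adjustment. A pseudocount of 1 FPKM brought the ratio to 1.52. Ccl7, the next gene of the cluster, was at 0.865 FPKM against 0.0401 FPKM. Its ratio of 4.43 ± 2.48 was higher than that of Ccl2 but did not pass (unadjusted p = 0.0744 in the authors' deposited table), and its SE was the widest of the tested members. Ccl12 was at 0.168 FPKM in the knockout group and listed at 0 in the wildtype group, and Ccl8 was listed at 0 and 0.0776 FPKM. Neither was tested. Ccr2, the receptor of Ccl2, Ccl7 and Ccl12, was near zero at 0.406 and 0.306 FPKM and was not tested.

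Ccl11 and Ccl24 attract eosinophils through Ccr3. Ccl24 was listed at 2.03 FPKM (knockout) and 2.298 FPKM (wildtype) (log2 ratio -0.18 ± 0.44). It and Cxcl12 were the 2 tested members with a ratio below 0, and neither passed. Ccl11 (0.0456 and 0.0248 FPKM) and Ccr3 (0.0542 and 0.0126 FPKM) were near zero and not tested.

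A second run of CC genes on chromosome 11 spans 138.9 kb and holds Ccl5, Ccl9, Ccl6, Ccl3 and Ccl4. Ccl9, a myeloid chemokine that binds Ccr1, was the most abundant CC ligand, at 19.5 FPKM in knockout livers against 18.9 FPKM in wildtype livers (log2 ratio 0.05 ± 0.23, 95% interval -0.39 to 0.49). Its neighbour Ccl6, also a Ccr1 ligand, was at 6.84 and 4.65 FPKM (0.56 ± 0.33, unadjusted p = 0.0926 in the authors' deposited table) and did not pass. Ccl5, which T cells and NK cells release, was at 3.17 and 2.87 FPKM (0.14 ± 0.60). Ccl3 (0.153 and 0.0376 FPKM) and Ccl4 (0.174 and 0.260 FPKM), products of activated myeloid and T cells, were near zero and not tested. Within this cluster no gene passed, whereas the cluster that starts with Ccl2 held 1 call. The difference between the clusters was not tested.

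Ccl25, the ligand of Ccr9 and a product of thymus and small intestine, was listed at 3.66 and 3.49 FPKM in the knockout and wildtype group (log2 ratio 0.07 ± 0.55). Ccl27a, the mouse counterpart of a skin chemokine, was at 4.66 and 3.45 FPKM (0.43 ± 1.29), and its locus in the table is shared with Il11ra1. Ccl28, a mucosal chemokine, was at 0.0400 and 0.0312 FPKM. Of the ligands of Ccr4, Ccl17 was at 0.0637 FPKM and listed at 0, and Ccl22 was at 0.0714 and 0.0686 FPKM. Ccl19, which guides dendritic and T cells through Ccr7, was listed at 0 in both groups, at a locus on an unlocalized scaffold of chromosome 4. Cx3cl1, a membrane-bound ligand of Cx3cr1, was at 0.441 and 0.279 FPKM. These last 5, Ccl28, Ccl17, Ccl22, Ccl19 and Cx3cl1, were near zero and not tested.

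**Figure D3:**
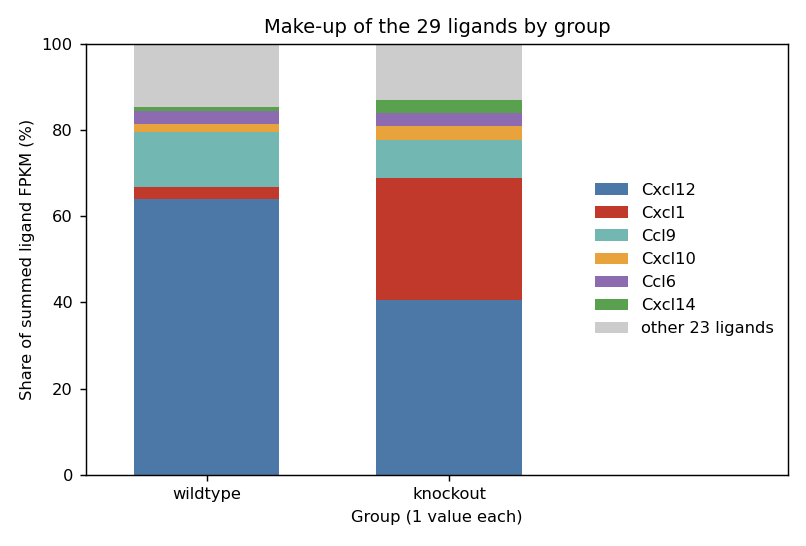
Share of each ligand in the summed FPKM of the 29 ligands, in percent, for the wildtype and the knockout group. Cxcl12 takes the largest share of both bars, and the red share of Cxcl1 goes from 2.81% to 28.3%.

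Summed over the 29 ligands, the values were 222.4 FPKM (knockout) and 149.9 FPKM (wildtype). Cxcl1 made up 80.9% of that difference, and without it the sums were 159.5 and 145.7 FPKM. Alb is marked HIDATA and listed at 0 in both groups, so it adds nothing to sums over all genes or to same-sum scaling. Over all genes the listed values summed to 646306 FPKM (knockout) and 564749 FPKM (wildtype). The excess without Cxcl1 thus depends on the scaling and is not read as a rise of the other ligands. Of the ligand sum, Cxcl12 held 64.1% in the wildtype group and 40.6% in the knockout group. Cxcl1 stood 4th among the ligands in the wildtype group, with 2.81% of the sum, and 2nd in the knockout group, with 28.3%. Ccl9 went from 2nd to 3rd place with little change in its own value. Cxcl10 went from 10th to 4th, Cxcl14 from 12th to 6th and Ccl2 from 14th to 9th. Cxcl12, Cxcl1 and Ccl9 together held 79.5% of the sum in the wildtype group and 77.7% in the knockout group.

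Near zero in both groups were 22 of the 35 members (62.9%), beside 54.5% of all genes in the table. They included all 19 untested members and 3 tested ones, Ccl7, Cxcl13 and Cxcr4. By class they were 10 of 17 CC ligands, 5 of 11 CXC ligands, Cx3cl1 and all 6 receptors. Under a limit of 0.1 FPKM in both groups 8 members remained. Among the 19 untested members no value exceeded 0.547 FPKM, and 13 were higher and 5 lower in the knockout group, which carries no test.

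**Figure D4:**
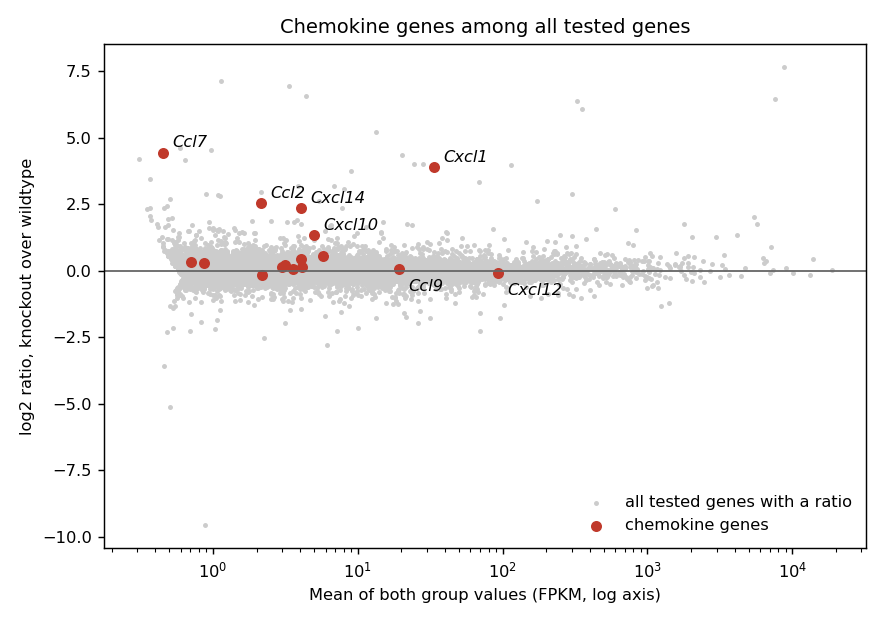
Log2 ratio of knockout over wildtype against the mean of both group values in FPKM (log axis) for 11456 tested genes in grey and the 16 tested chemokine genes in red. Cxcl1 combines a high ratio with a mean above 30 FPKM, and Cxcl12 and Ccl9 lie on the zero line.

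The 6 receptors were low throughout. Cxcr2, the neutrophil receptor of Cxcl1, was at 0.546 FPKM in knockout livers against 0.347 FPKM in wildtype livers. Cx3cr1, a receptor of monocytes and some macrophages, was at 0.426 and 0.184 FPKM (log2 ratio 1.21 ± 0.62). Its unadjusted p is 0.0488 in the authors' deposited table, which marks the gene as not tested. Ccr1, a myeloid receptor of Ccl3, Ccl5, Ccl6 and Ccl9, was at 0.153 and 0.0540 FPKM. All 6 receptors were higher in the knockout group, from 1.26-fold for Cxcr4 to 2.84-fold for Ccr1, and 1 of them (Cxcr4) was tested and did not pass. The other 5 were not tested, so the shared direction carries no test. The log2 ratio of Ccr1 was 1.51 ± 1.26. That of Cxcr6, whose locus overlaps another gene, was 0.71 ± 2.13. In bulk tissue, a change in the number of cells of a type and a change in RNA per cell cannot be told apart.

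Another 18 receptors of the chemokine system, atypical ones and the chemerin receptor Cmklr1 included, were also low. In the knockout group 11 of them were higher and 6 lower. Of the 18 receptors, 6 were tested and 0 passed, with 0 at an unadjusted p under 0.05 in the authors' deposited table and a median log2 ratio of 0.25. The highest was Ccrl1 (now Ackr4), a scavenger of Ccl19, Ccl21 and Ccl25, at 2.005 and 1.989 FPKM (0.01 ± 2.24). Cxcr1, the other receptor of the neutrophil chemokines, was at 0.0216 and 0.0281 FPKM. Over all 24 receptors, 20 lay under 1 FPKM in both groups.

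**Figure D5:**
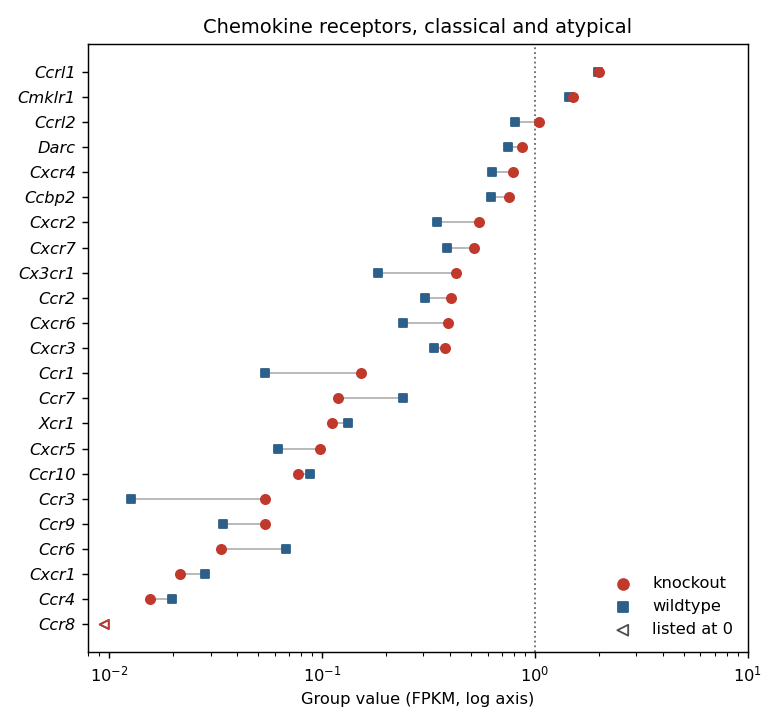
Group values of the receptors in FPKM on a log axis, with circles for knockout, squares for wildtype and an open triangle for a value of 0. Of these, 20 lie left of the dotted line at 1 FPKM in both groups, and Ccrl1 and Cmklr1 lie right of it in both.

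Among the other chemokine system genes, 38 in all with those 18 receptors, 14 were tested and 0 passed, with 1 at an unadjusted p under 0.05 in the authors' deposited table. That gene was Ppbp, a platelet chemokine that attracts neutrophils, at 1.51 FPKM against 0.490 FPKM (1.62 ± 0.74, and q = 0.740 by the authors' deposited table). Pf4, another platelet chemokine, was at 2.54 and 1.82 FPKM (0.48 ± 0.62). The most abundant were Mif, a cytokine that can bind Cxcr2 and Cxcr4, at 383 and 452.9 FPKM (-0.24 ± 0.22), and the membrane proteins Cmtm8, at 77.8 and 64.3 FPKM (0.28 ± 0.22), and Cmtm6, at 45.5 and 45.9 FPKM (-0.01 ± 0.22). Cxcl3 and Ccl1 were listed at 0 in both groups, and Ccl20 was at 0.0666 FPKM and 0.

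Of 45 genes listed for chemokine receptor signalling, with the proteases Dpp4, Adam10 and Adam17 among them, 33 were tested, 1 fell and 0 rose. The gene that fell was Rgs16, which speeds the switch-off of G proteins, at 9.94 FPKM (knockout) and 32.9 FPKM (wildtype) (-1.73 ± 0.25, and q = 4.34e-09 by the authors' deposited table). Rgs2, of the same family, was at 2.11 and 1.19 FPKM (0.82 ± 0.37), and Rac2, a GTPase of blood cells, at 3.61 and 2.36 FPKM (0.61 ± 0.31). Both had an unadjusted p under 0.05, at 0.0266 and 0.0445 in the authors' deposited table, and did not pass. Pik3cg, a lipid kinase downstream of leukocyte chemokine receptors, was at 0.230 and 0.0848 FPKM and was not tested. The most abundant members were close to level: Gng5 at 173 and 162.4 FPKM, Gnb2 at 85.8 and 81.02 FPKM and Rhoa at 68.7 and 71.98 FPKM. Dpp4, the protease that clips Cxcl12 and several other chemokines, was at 22.5 FPKM in both groups (-0.0031 ± 0.22). The median log2 ratio of the 33 was 0.06.

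Markers of cells that these chemokines attract, and of resident Kupffer cells, moved in part with the genotype. Of 11 tested neutrophil markers 4 rose (S100a8, S100a9, Ngp and Ltf) and 0 fell. The 13 listed, which include Cxcr2, summed to 136.4 FPKM in knockout livers against 7.45 FPKM in wildtype livers, with none at 0. Within these sums Prtn3 was at 25.99 FPKM (knockout) and 0.697 FPKM (wildtype). Its log2 ratio was 5.22 ± 17.06 and that of Elane 4.18 ± 61.65, and neither passed. Prtn3 and Elane are listed at the same locus, so that their reads may not be fully separable. Of the 11 tested, 8 (Ngp and Ltf among them) lay below 0.679 FPKM in the wildtype group and may have been tested through the knockout group, so the count is a description only. S100a8, a calcium-binding protein of neutrophils, was at 38.4 FPKM against 1.89 FPKM. This stands beside the rise of Cxcl1, and its part in that result was not tested. The 10 monocyte and macrophage markers, which include Ccr2 and Cx3cr1, summed to 116.3 and 85.1 FPKM, with none at 0. Of them 6 were tested, 0 passed and 3 had an unadjusted p under 0.05 in the authors' deposited table, all higher. Of 11 tested Kupffer cell markers Marco and C1qa rose and 0 fell, with sums of 549.1 and 357.8 FPKM. All 11 ratios were above 0, and 6 were higher and 0 lower at an unadjusted p under 0.05 in the authors' deposited table. C1qa passed narrowly, at q = 0.0484 by the authors' deposited table. The ratios of Timd4 (0.015), Cd163 (0.10) and Id3 (0.14) would fall below 0 with the shift of -0.19 that same-sum scaling brings. The 13 T and NK cell markers, for the cells that Cxcl9, Cxcl10 and Ccl5 attract, summed to 5.55 and 5.65 FPKM, none at 0, with 4 tested and 0 passing (0 also at an unadjusted p under 0.05). Of 7 B cell and plasma cell markers 3 were tested, and of 8 dendritic cell markers 3, with 0 passing in either list. At an unadjusted p under 0.05 in the authors' deposited table, 0 of these B cell markers and 1 dendritic cell marker were higher, and 0 were lower. The parts of these markers in the values of Ccl2, Cxcl10 and the receptors were not tested.

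Hepatocyte markers were high, as the liver label has it, at a median of 1082 FPKM (knockout) and 1219 FPKM (wildtype) over 13 genes, while 18 intestinal epithelium markers had medians of 0.515 and 0.346 FPKM, with Tff3 at 48.8 and 23.9 FPKM and Fabp2 at 42.9 and 54.7 FPKM the most abundant. Of the intestinal markers 9 were tested and 0 passed, with 3 higher (Tff3, Reg3b and Lyz1) at an unadjusted p under 0.05 in the authors' deposited table, 8 of 9 ratios above 0 and a median log2 ratio of 0.73. Of 12 sinusoidal endothelium and 12 stellate cell and fibroblast markers, all tested, 0 passed, with 1 and 2 lower at an unadjusted p under 0.05 in the authors' deposited table. Of 8 tested cholangiocyte markers 1 rose, Spp1, and all 8 ratios were above 0. Those of Sox9 (0.08), Krt7 (0.10) and Krt19 (0.10) would fall below 0 with the same-sum shift given below. Enpp7 was at 0.141 FPKM in knockout livers against 0.0541 FPKM in wildtype livers and was not tested, so it does not check the genotype labels. Scaling both groups to the same sum of listed FPKM moved the median log2 ratio of all tested genes to -0.20 and the calls from 66 higher and 58 lower to 49 and 140. That scaling shifts every log2 ratio by -0.19, and on it Cxcl1 (3.71) and Cxcl14 (2.15) still passed.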

How the data were processed

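Liver RNA of 6 mice was sequenced as single-end reads of 50 nt after Illumina TruSeq library preparation from 1 ug of total RNA, per the labels' protocols and the design text. Alignment used Bowtie2 and mm10, per the submitters' processing notes. The program that made the tables, its handling of reads with several matches and the strandedness are not given in the sources used here.

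The authors deposited a table of 23415 genes and a list of 95, which are the called genes with an absolute log2 ratio of at least 1. Both hold 1 value per group. The file headers name no unit; the columns match Cuffdiff output, so the values deposited by the authors were taken as FPKM. The authors' log2 ratio, which has wildtype as numerator per the file headers, was turned round. The authors' p-value is the 2-sided normal p of their z, within 2.63e-06, and their q-value its Benjamini-Hochberg adjustment over 11515 tested genes. No columns of other series were found (0).

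No test of spread between mice was possible, so calls follow the authors' q. The SE is the ratio over z, and 95% intervals are normal. Genes without a finite ratio (59 tested genes) stayed out of medians. Table starts were raised by 1, and members within 500 kb were grouped as clusters. Alternatives were scaling to the same sum, quantile normalization, a mean of at least 1 FPKM, Holm adjustment, q under 0.1, a 2-fold minimum, the short list, pseudocounts of 1 and 0.5, and limits of 0.5 and 0.1 FPKM for near zero. For same-sum scaling and quantile normalization, z was recomputed with the deposited error. That recalculation was run on simulated data whose noise was drawn from the same error. The mean limit and Holm adjustment adjusted the deposited p anew, and q under 0.1 and the 2-fold minimum kept the deposited q. Members and gene lists were chosen with earlier results of these data known. All members are named; of other lists, the called genes, those at an unadjusted p under 0.05 and the 3 most abundant, and of marker lists the called genes. Others (Tff3, Fabp2, Reg3b, Lyz1, Cxcr3, Cxcr7, Ccr3, Cxcr1, Ccrl1, Pf4, Cxcl3, Ccl1, Ccl20, Dpp4, Adam10, Adam17, Prtn3, Elane, Timd4, Cd163, Id3, Sox9, Krt7, Krt19, Alb and Enpp7) were chosen after their values were seen, for their pairing with members, their role, a ratio near 0 or a shared locus. Python 3.11.15, pandas 2.3.3 and scipy 1.17.1 were used. Protein sequences were not used here. The values of 1 receptor, counted in the receptor summaries, are not reported here or plotted with the receptors. Depth per library is unknown, so no counting interval is given.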

Additional observations from a re-analysis of the deposited data

How the results depend on the processing

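The count of 3 members called higher was 2 after same-sum scaling and 2 with Holm adjustment, where Ccl2 was lost, and 3 under quantile normalization, a mean of at least 1 FPKM, q under 0.1, a 2-fold minimum and the authors' short list. No member was called lower under any of these 7 alternatives (0 each), 0 other chemokine system genes were called, and Rgs16 was the 1 signalling gene called in each. Holm adjustment, the 2-fold minimum and the short list can only drop calls, so they could not have added any. The short list holds the same genes as the 2-fold minimum. The median log2 ratio of 0.32 over tested members was 0.12 with the same sum, 0.25 after quantile normalization, 0.22 with a mean of at least 1 FPKM, and 0.15 and 0.19 with pseudocounts of 1 and 0.5. The 22 members near zero were 17 under a limit of 0.5 FPKM and 8 under 0.1 FPKM. With a pseudocount of 1, the ratio of Ccl2 was 1.52 and that of Cxcl14 1.74. Over all tested genes, Holm adjustment called 35 higher and 20 lower, and the 2-fold minimum 58 and 37. The number of mice limits precision, and leaving out each mouse was not run, as no values per mouse were used here. No paired analysis was possible because the columns carry 1 value per group and the sample numbers of the groups are not shared.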
